A study of Rattus norvegicus with 17 samples.

Results

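The nuclear genes of respiratory complexes II to V were followed in rat gastrocnemius, a mixed hindlimb muscle, by RNA sequencing. The members were all protein-coding entries of the deposited count table with a gene name beginning Cox and a digit, Atp5 or Uqc, together with Sdha, Sdhb, Sdhc, Sdhd, Cyc1 and Cycs. This gave 64 of 32495 named entries, with 62 distinct names. There were 5 samples of healthy muscle, 5 of muscle from rats with a tumor and 6 from rats with a tumor treated by chemotherapy, called healthy, tumor and chemotherapy samples. Every group received the control diet, and the labels used here give no strain, sex, age, tumor type, chemotherapy agent, dose or time point. Nothing in the labels ties a library to an animal, so p-values measure the spread between these samples, which may in part be technical.

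The respiratory chain passes electrons from complex II (succinate dehydrogenase, shared with the citric acid cycle) and from other dehydrogenases to coenzyme Q. Complex III hands them to cytochrome c and complex IV to oxygen, and complex V (ATP synthase) uses the resulting proton gradient to make ATP. Complexes III, IV and V combine subunits encoded in the nucleus with a few encoded in mitochondrial DNA, whereas all complex II subunits are nuclear. Skeletal muscle carries tissue-specific isoforms of some complex IV subunits, and slow oxidative fibers hold more mitochondria than fast glycolytic fibers.

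Of the 64 members, 59 passed the filter on low counts and were tested: 4 of complex II, 13 of complex III, cytochrome c, 25 of complex IV and 16 of complex V. Cox6c-ps1, Cox8c and Cox7b2 had 0 counts in every library, Cox6b2 had 17 counts in all and Atp5pb, the b subunit of the peripheral stalk of ATP synthase, had 5. Cox6b1 and Uqcrb each stand on 2 entries that the table does not tell apart, so their reads may be split, and they are given as entry 1 and entry 2. The entry Cox7a2l2 is named as a Cox7a2-like gene, and an entry named Cox7a2 was not analysed here, so the value of Cox7a2l2 is uncertain. The mitochondrially encoded subunits Mt-cyb, Mt-co1, Mt-co2, Mt-co3, Mt-atp6 and Mt-atp8 are listed at 0 in every library and were not analysed. The results therefore cover the nuclear side of each complex alone.

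Deposited libraries held 3020821 to 15719080 counts on named entries. Libraries 11 and 12, both chemotherapy, were the closest pair of a group (chi-square over genes divided by its degrees of freedom 2.03, against 5.16 for the next closest), and were summed into 1 sample, called library 11 here. Healthy libraries 1, 3 and 4 stood apart from healthy libraries 2 and 5 for many members, and tumor library 8 resembled them for several of these. The alignment names end in MB (healthy libraries 1 to 4 and chemotherapy library 11) or VM (healthy library 5, all tumor and the other chemotherapy libraries), and the meaning of the suffix is not given. Muscle fiber markers were abundant in every library, with a summed level over 9 genes of 219267 to 309588 CPM in healthy, 179567 to 249942 in tumor and 181777 to 221364 with chemotherapy.

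Levels are read counts scaled to a common library total (CPM) with a trimmed-mean (TMM) correction, and a gene is said to be called when its p, adjusted over all 11856 genes tested, is below 0.05 (edgeR quasi-likelihood test). The first comparison asked how the tumor alone altered these genes. None of the 59 tested members was called in tumor against healthy muscle, and over all genes 0.00% were called higher and 0.00% lower. At an unadjusted p below 0.05, 6 members (10.2%) were higher and 9 (15.3%) lower, beside 8.88% and 9.12% of all genes. With scaling by total counts alone this balance turned to 14 higher and 1 lower, and leaving out 1 library moved the counts between 1 and 14 higher and between 3 and 15 lower. The DESeq2 Wald test called 1 member, Atp5mc1, lower, and limma-voom called 0. Over all genes the Wald test called 13 higher and 50 lower, and limma-voom 0 in each direction. The median log2 fold change of the members was -0.08, against 0.01 for all genes, and with total counts alone, which moved the median of all genes to 0.13, the members' median turned positive at 0.04. Without tumor library 8 the median was -0.02, without tumor library 7 it was -0.05, without healthy library 1 -0.05 and without tumor library 10 -0.13.

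Chemotherapy against healthy muscle was the comparison in which members were called, 10 in all. Cox7b, Cox6c, Cox7c, Cycs, Sdhd, Uqcrc2 and Uqcrb entry 1 were higher and Atp5mc1, Uqcrc1 and Cox4i2 were lower, so that each direction drew on several complexes. The 7 higher calls are 11.9% of the members, beside 7.30% of all genes, and the 3 lower calls 5.08%, beside 6.41%. At an unadjusted p below 0.05, 17 members (28.8%) were higher and 14 (23.7%) lower, beside 18.9% and 17.5% of all genes, and with total counts alone 21 were higher and 5 lower. In 5 members (Uqcc1, Uqcrh, Uqcrb entry 1, Atp5if1 and Atp5me) every chemotherapy sample lay above every healthy one, and in 0 members below, where 2.02% and 1.97% of all genes were separated in this way. The median log2 fold change of the members was 0.04, against -0.02 for all genes, and the standard deviation of their fold changes was 0.49, against 0.55. That median ran from 0.0042 without healthy library 2 to 0.072 without healthy library 1.

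The number of calls depended on single libraries. Leaving out any 1 of healthy libraries 1, 3 or 4 or of chemotherapy libraries 13, 14 or 15 left 0 members called, and leaving out chemotherapy library 16 left 2 (Atp5mc1 and Sdhd). Leaving out healthy library 2, healthy library 5, tumor library 8 or chemotherapy library 11 raised the number to 31, 19, 20 and 18. Calls over all genes moved as well, with 0 in each of the fits above that left 0 members called. Higher and lower, they numbered 2024 and 1775 of 11995 genes without healthy library 2 and 1236 and 1162 of 11988 without healthy library 5. They numbered 1217 and 1070 of 11970 without tumor library 8, and 1505 and 1384 of 11828 without chemotherapy library 11. Without chemotherapy library 16 they numbered 261 and 268 of 11811, beside 865 and 760 of 11856 with all samples. Without healthy libraries 1, 3 and 4 together, 0 genes, members or not, were called in chemotherapy against healthy muscle. The same held with the suffix as a term and with 1 surrogate variable. The first of these settings left healthy libraries 2 and 5 alone, and the part of sample number in the lost calls was not tested. The VM libraries hold healthy library 5 alone, so only fold changes are read from them. The 28 alternatives refit all or part of the samples that gave the calls, so a kept sign is not independent of the call. The 10 called members kept the sign of their fold change under all 28. Their size did not hold in the same way: with 1 surrogate variable the log2 fold changes were 0.30 for Cox7b, 0.27 for Uqcrb entry 1, 0.19 for Cycs, 0.18 for Sdhd, 0.16 for Cox6c, 0.16 for Cox7c and 0.049 for Uqcrc2, and -0.27 for Cox4i2, -0.15 for Atp5mc1 and -0.082 for Uqcrc1. The surrogate variable was highest in healthy libraries 4, 3 and 1 and tumor library 8. It was below 0 in every chemotherapy sample except library 11, so it partly followed the groups compared. Scaling by total counts gave 16 members higher and 1 lower, and DESeq2 size factors 7 higher and 1 lower. Over all genes, total counts gave 1669 higher and 348 lower with a median log2 fold change of 0.12. DESeq2 size factors gave 839 genes higher and 706 lower.

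Set against tumor alone, chemotherapy samples showed 0 called members in edgeR, in DESeq2 and in limma-voom, and 0.00% of all genes were called higher and 0.00% lower in edgeR. At an unadjusted p below 0.05, 3 members (5.08%) were higher, namely Uqcrb entry 2, Cox11 and Atp5f1e, and 1 (1.69%), Cox4i2, was lower, beside 1.97% and 3.81% of all genes. The median log2 fold change was 0.09 for the members and 0.00 for all genes. Without tumor library 8 the members' median was 0.02 with 0 higher at the unadjusted p, and without tumor library 6 it was 0.15 with 7 higher. Without chemotherapy library 15, 1 member was higher at the unadjusted p, and without chemotherapy library 13, 14, 16 or 17, 2 were. The comparisons of tumor and of chemotherapy with healthy muscle share the healthy samples, so their values stand side by side and are not independent.

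**Figure D1:**
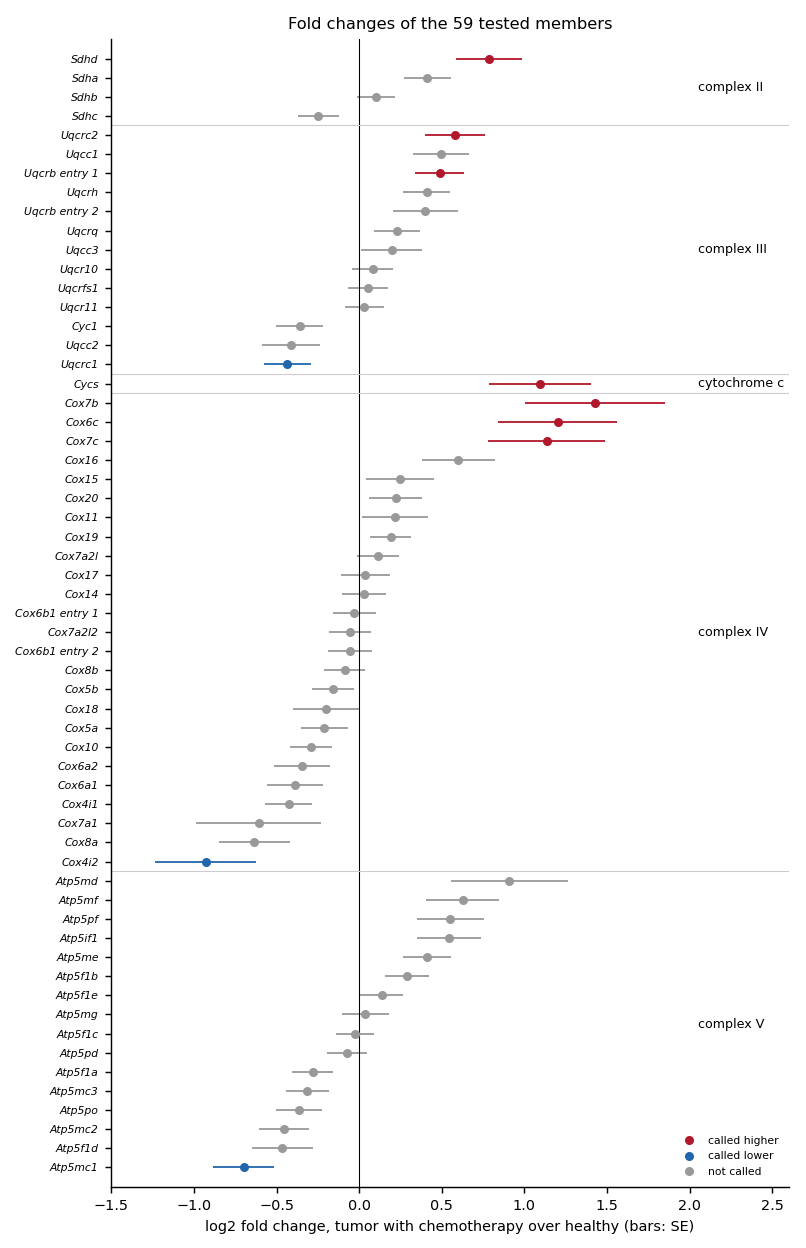
Log2 fold change of each of the 59 tested members in chemotherapy over healthy muscle, by complex, with bars for the standard error. The 7 members called higher (red) and 3 called lower (blue) are spread over complexes, and most members (grey) were not called.

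Promoters are shown for members at both ends of the chemotherapy comparison, Cox7b and Cycs among the genes called higher and Atp5mc1 and Uqcrc1 among those called lower. RefSeq (build GRCr8) held a window of 300 bases, from 250 before to 50 after the start of the gene, for 49 of the tested members. Capitals mark matches to motifs of factors known to act on nuclear genes of the respiratory chain: NRF1 (GCATGCGC), ETS family factors such as NRF2 (CCGGAAG), ERR (AAGGTCA) and YY1 (AAGATGGCG), each searched on both strands, with no overlap between motifs in the members.
Cox7b (chrX:75148786-75149085, plus strand): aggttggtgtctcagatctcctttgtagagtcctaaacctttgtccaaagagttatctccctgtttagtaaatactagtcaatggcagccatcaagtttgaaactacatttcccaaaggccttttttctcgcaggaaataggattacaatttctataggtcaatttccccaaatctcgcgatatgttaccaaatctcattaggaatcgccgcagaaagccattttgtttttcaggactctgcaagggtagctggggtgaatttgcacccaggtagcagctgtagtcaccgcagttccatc
Cycs (chr4:80984718-80985017, minus strand): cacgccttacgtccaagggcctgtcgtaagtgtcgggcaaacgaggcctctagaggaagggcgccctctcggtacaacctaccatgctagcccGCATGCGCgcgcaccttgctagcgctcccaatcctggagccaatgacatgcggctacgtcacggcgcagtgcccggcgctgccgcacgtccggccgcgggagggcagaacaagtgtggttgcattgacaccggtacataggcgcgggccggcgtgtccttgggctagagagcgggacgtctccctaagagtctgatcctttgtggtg
Atp5mc1 (chr10:81523296-81523595, minus strand): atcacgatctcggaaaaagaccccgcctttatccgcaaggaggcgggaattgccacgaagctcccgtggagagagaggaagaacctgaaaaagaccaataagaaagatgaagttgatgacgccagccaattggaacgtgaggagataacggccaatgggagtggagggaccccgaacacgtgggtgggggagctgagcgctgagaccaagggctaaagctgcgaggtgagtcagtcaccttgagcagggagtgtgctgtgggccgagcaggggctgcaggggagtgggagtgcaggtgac
Uqcrc1 (chr8:118467973-118468272, plus strand): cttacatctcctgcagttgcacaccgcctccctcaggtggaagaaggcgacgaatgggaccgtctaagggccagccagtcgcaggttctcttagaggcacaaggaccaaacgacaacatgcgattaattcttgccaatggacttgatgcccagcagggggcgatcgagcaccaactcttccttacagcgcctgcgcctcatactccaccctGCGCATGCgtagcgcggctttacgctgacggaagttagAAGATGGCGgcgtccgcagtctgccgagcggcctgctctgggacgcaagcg
The Cycs window held an NRF1 match beginning at base -157 from the start, and the Uqcrc1 window an NRF1 match on the reverse strand and a YY1 match nearer the start. The Cox7b and Atp5mc1 windows held none of the 4. Of the other called members with a window, Sdhd had ETS and ERR matches, Uqcrc2 had ETS matches and Cox7c had none.

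Over the 49 windows, NRF1 letters stood in 8 (16.3%), against 2.47% of all 33469 promoters and 5.19% of those of the tested genes. ETS letters stood in 18 (36.7%), against 8.75% and 18.3%, ERR letters in 8 (16.3%), against 4.61% and 2.61%, and YY1 letters in 4 (8.16%), against 1.73% and 4.12%. Matches occurred in members with positive and with negative fold changes, such as NRF1 letters in Cycs and in Uqcrc1. A match describes the letters of the window and does not show binding.

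In complex II the membrane anchor Sdhd rose, while edgeR called neither the catalytic subunits nor the other anchor. Sdhd stood at 202, 315, 214.5, 153 and 268 CPM in healthy libraries 1 to 5, at 419.6, 318, 202, 395 and 252 in tumor libraries 6 to 10 and at 314 to 477 (median 402) in chemotherapy samples. Healthy library 2 was the only healthy library inside the chemotherapy range, and tumor library 8 lay among the low healthy libraries. Sdhd was called higher in chemotherapy than healthy muscle (log2 fold change of 0.78 ± 0.20 SE at adjusted p = 0.0290), at 0.46 in tumor against healthy (adjusted p = 0.260) and at 0.44 in chemotherapy against healthy without healthy libraries 1, 3 and 4.

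Sdha, the flavoprotein that oxidizes succinate, stood at 563.5, 583, 465, 377 and 563 CPM in healthy, 764.5, 637, 538, 684 and 562 in tumor and 565.5 to 766 (median 681) with chemotherapy. Its groups overlapped, and it was not called by edgeR in chemotherapy against healthy muscle (log2 fold change of 0.41 ± 0.14 SE at adjusted p = 0.0547), although the DESeq2 Wald test and limma-voom called it higher (adjusted p = 0.0240 and 0.0390). Sdhb, the iron-sulfur subunit, averaged 286 ± 31.2, 298 ± 38.9 and 307 ± 14.7 CPM in healthy, tumor and chemotherapy samples, and its groups covered nearly the same range. Sdhc, the partner of Sdhd in the membrane, had the opposite sign from Sdhd: 415, 332, 444, 472 and 341 CPM in healthy, 333, 265, 298.5, 344 and 345 in tumor and 325 to 368 (median 335) with chemotherapy. Its highest values were in healthy libraries 1, 3 and 4, the libraries where Sdhd was lowest. Sdhc was not called (log2 fold change -0.34 ± 0.13 in tumor and -0.25 ± 0.12 in chemotherapy against healthy, adjusted p = 0.242 and 0.148), and its chemotherapy value came to 0.0042 without those libraries. The summed level of the 4 subunits was 1428 ± 92.4 CPM in healthy, 1569 ± 217 in tumor and 1721 ± 148 with chemotherapy.

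**Figure D2:**
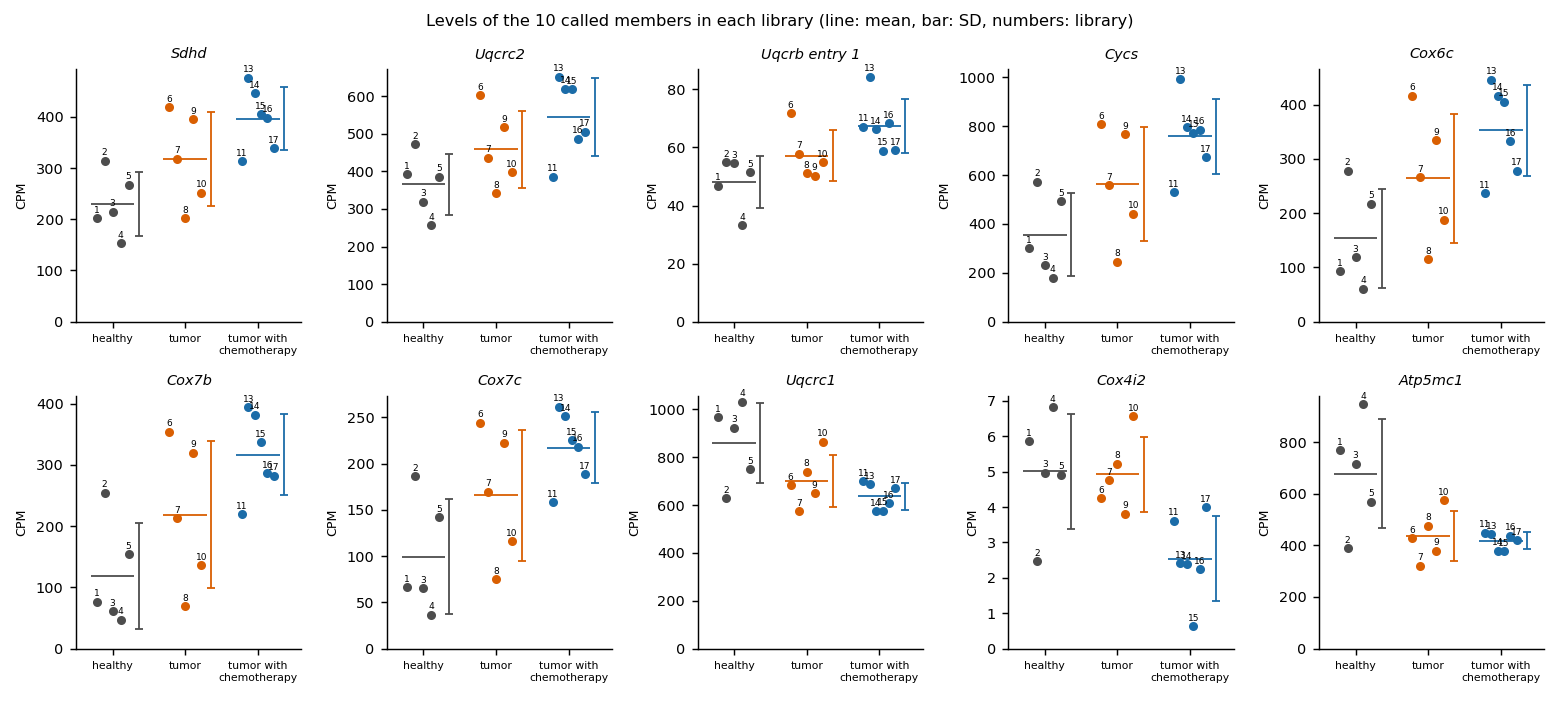
Level in CPM of the 10 called members in each library, with the library number, the group mean (line) and SD (bar). Healthy libraries 1, 3 and 4 lie at the low end for Cycs, Cox6c, Cox7b and Cox7c and at the high end for Uqcrc1 and Atp5mc1, with healthy library 2 near the chemotherapy samples.

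In complex III the called genes split in direction, and its 2 core proteins, Uqcrc1 and Uqcrc2, moved opposite ways. Uqcrc2 stood at 392, 473, 319, 257 and 386 CPM in healthy, 603.5, 437, 341.5, 517 and 398 in tumor and 386 to 652 (median 563) with chemotherapy. Healthy libraries 1 and 2 lay inside the chemotherapy range, and the other healthy libraries lay below it. It was called higher in chemotherapy than healthy muscle (log2 fold change of 0.58 ± 0.18 SE at adjusted p = 0.0429), with 0.34 without healthy libraries 1, 3 and 4. Uqcrc1 stood at 968, 629, 924, 1032 and 749 CPM in healthy, 683, 574, 739.8, 649 and 865 in tumor and 575 to 699 (median 639) with chemotherapy. Here healthy library 2 alone fell within the chemotherapy range, and the other 4 healthy libraries lay above it. Uqcrc1 was called lower (log2 fold change of -0.44 ± 0.14 SE at adjusted p = 0.0492), with -0.12 without healthy libraries 1, 3 and 4. Neither core gene was called in tumor against healthy muscle (0.33 and -0.29, adjusted p = 0.334 and 0.299).

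Among the small supernumerary subunits of complex III, Uqcrb entry 1 rose in chemotherapy samples. It stood at 46.9, 54.9, 54.6, 33.2 and 51.5 CPM in healthy, 71.8, 57.9, 51.1, 50.3 and 55 in tumor and 58.9 to 84.4 (median 66.7) with chemotherapy. Every chemotherapy sample was above every healthy one, while the tumor samples overlapped both. The call (log2 fold change of 0.49 ± 0.15 SE at adjusted p = 0.0402) holds for 1 of the 2 Uqcrb entries. Uqcrb entry 2 had log2 fold changes of 0.40 ± 0.20 against healthy (adjusted p = 0.145) and 0.43 ± 0.19 against tumor (unadjusted p = 0.0392, adjusted p = 0.778). Uqcrh, the hinge protein beside cytochrome c1, which is named outside the rule after its values were seen, stood at 198, 242, 217, 186 and 212 CPM in healthy, 308, 232, 160.2, 265.5 and 239 in tumor and 255 to 309 (median 278) with chemotherapy. It was separated between healthy and chemotherapy samples but missed the call in edgeR (log2 fold change of 0.41 ± 0.14 SE at adjusted p = 0.0552), and was called higher by the DESeq2 Wald test and limma-voom. All 6 supernumerary entries had positive fold changes in chemotherapy against healthy muscle, from 0.03 for Uqcr11 to 0.49 for Uqcrb entry 1, and 1 was called.

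The electron-carrying subunits of complex III were not called in edgeR. Cyc1, cytochrome c1, averaged 526 ± 107 CPM in healthy, 423 ± 57.8 in tumor and 410.1 ± 38.04 with chemotherapy (log2 fold change of -0.36 ± 0.14 SE at adjusted p = 0.0773 for chemotherapy against healthy), and the DESeq2 Wald test called it lower there (adjusted p = 0.0496). Uqcrfs1, the Rieske iron-sulfur protein, which is also named outside the rule, averaged 485 ± 50.9, 459 ± 67.5 and 504 ± 35.05 CPM, and the ranges of the groups overlapped. The assembly factors for cytochrome b differed in sign. Uqcc1 stood at 33.4, 52.7, 46.1, 35.6 and 54.8 CPM in healthy, 78.2, 51.4, 42.5, 76.5 and 51.9 in tumor and 57.6 to 69.5 (median 62) with chemotherapy, with no overlap between healthy and chemotherapy but an adjusted p of 0.0544 in edgeR. The DESeq2 Wald test and limma-voom called Uqcc1 higher. Uqcc2 averaged 128 ± 37.02 CPM in healthy, 91.1 ± 14.2 in tumor and 96.4 ± 14.3 with chemotherapy (adjusted p = 0.242 and 0.0983 against healthy), with its highest values in healthy libraries 3 and 4. Uqcrq, a small subunit near cytochrome b, had a log2 fold change of 0.26 ± 0.14 in chemotherapy against tumor (adjusted p = 0.778). The third assembly factor, Uqcc3, averaged 13.4 ± 2.75 CPM in healthy and 15.6 ± 3.28 with chemotherapy.

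Cycs encodes somatic cytochrome c, which carries electrons from complex III to complex IV and, once released from mitochondria, takes part in apoptosis. It stood at 299.8, 572, 232, 179 and 493 CPM in healthy, 809, 557, 245, 766 and 441 in tumor and 529 to 992 (median 779.7) with chemotherapy. The highest healthy library was 3.19 times the lowest, and tumor library 8 lay between healthy libraries 3 and 1. Cycs was called higher in chemotherapy than healthy muscle (log2 fold change of 1.09 ± 0.31 SE at adjusted p = 0.0334). Without healthy libraries 1, 3 and 4 the log2 fold change was 0.51, and in tumor against healthy muscle it was 0.67 ± 0.31 (adjusted p = 0.276).

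In complex IV the 3 genes with the highest fold changes were Cox7b, Cox6c and Cox7c, all small membrane-spanning subunits around the catalytic core, and all were called higher in chemotherapy than healthy muscle. Cox7b stood at 76.5, 254, 60.96, 46.7 and 154 CPM in healthy, 354, 213, 69.2, 319.8 and 136.5 in tumor and 219.7 to 394 (median 312) with chemotherapy. Cox6c stood at 92.9, 278, 118, 60.3 and 218 CPM in healthy, 416, 266, 115, 335 and 188 in tumor and 236 to 446 (median 369) with chemotherapy. For both, healthy libraries 1, 3 and 4 were the lowest healthy ones, tumor library 8 was the lowest tumor one and chemotherapy library 11 the lowest chemotherapy one. The same libraries were the lowest of their groups for Cox7c, with 66.5, 186, 65.1, 36.8 and 142 CPM in healthy, 244, 169.8, 74.7, 223 and 116 in tumor and 158 to 262 (median 222) with chemotherapy.

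For all 3, healthy library 2 was the only healthy library inside the chemotherapy range. The log2 fold changes in chemotherapy against healthy muscle were 1.43 ± 0.43 SE for Cox7b, 1.20 ± 0.36 for Cox6c and 1.14 ± 0.36 for Cox7c, with adjusted p = 0.0387, 0.0389 and 0.0444. Without healthy libraries 1, 3 and 4 they were 0.63, 0.50 and 0.40. In tumor against healthy muscle they were 0.89, 0.79 and 0.74, none of them called (adjusted p = 0.286, 0.275 and 0.287). The ratio of the highest to the lowest healthy library was 5.44 for Cox7b, 4.62 for Cox6c and 5.06 for Cox7c, so the healthy libraries differed widely among themselves. These are ratios of extremes, a measure unlike the fold changes between groups.

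No other member subunit of complex IV was called higher. Of the 16 tested subunit entries, 4 had positive and 12 negative fold changes in chemotherapy against healthy muscle, with 3 called higher and 1 lower. Cox4i1, the main isoform of the largest nuclear subunit, stood at 824, 570.0, 784, 933 and 660.4 CPM in healthy, 588, 469, 586, 586 and 736 in tumor and 495 to 642 (median 548) with chemotherapy. Its highest values were in healthy libraries 1, 3 and 4, and it just missed the call in edgeR (log2 fold change of -0.43 ± 0.14 SE at adjusted p = 0.0505), while the DESeq2 Wald test and limma-voom called it lower. Cox8a, a small subunit, averaged 33.9 ± 13.5 CPM in healthy, 23.8 ± 3.90 in tumor and 21.9 ± 3.45 with chemotherapy (log2 fold change of -0.63 ± 0.21 SE at adjusted p = 0.0518), and the DESeq2 Wald test called it lower. Its log2 fold change turned to 0.06 without healthy libraries 1, 3 and 4. The entries of Cox6b1, on the side of the complex that faces cytochrome c, had log2 fold changes of -0.03 and -0.06. The subunits Cox5a, Cox5b and Cox8b and the uncertain Cox7a2l2 ranged from -0.21 for Cox5a to -0.06 for Cox7a2l2.

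**Figure D3:**
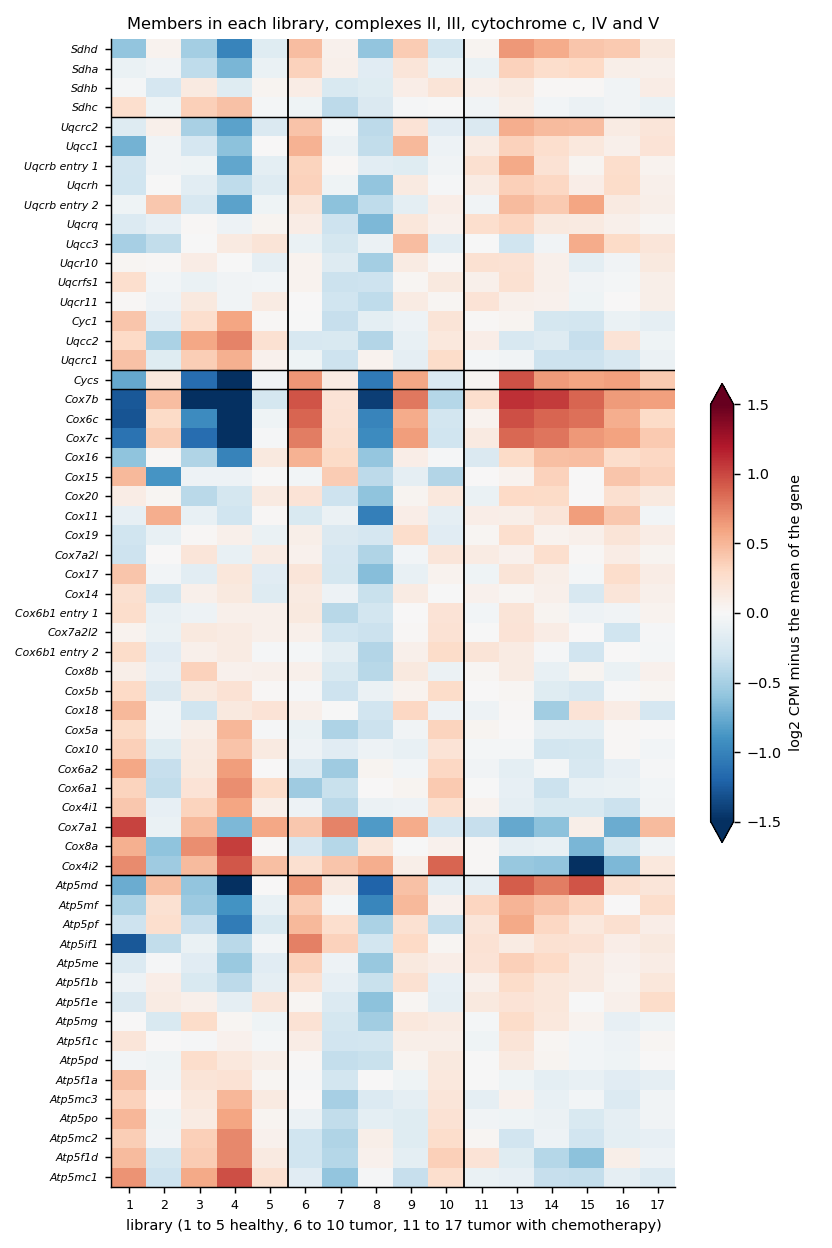
Log2 CPM of each tested member in each library, less the mean of the gene over the 16 samples, with members ordered by complex and by fold change. Cycs, Cox7b, Cox6c and Cox7c are lowest in healthy libraries 1, 3 and 4 and tumor library 8, the libraries in which Atp5mc1 and Cox8a were near or above their means.

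Cox4i2, the isoform of the Cox4 subunit known from lung and from low oxygen, fell in chemotherapy samples from a low level. It stood at 5.86, 2.47, 4.97, 6.82 and 4.91 CPM in healthy, 4.24, 4.76, 5.22, 3.81 and 6.57 in tumor and 0.623 to 3.99 (median 2.40) with chemotherapy. These levels rest on 9 to 101 counts per healthy library, 24 to 55 per tumor library and 2 to 74 per chemotherapy sample, with 2 counts in library 15. Healthy library 2 lay within the chemotherapy range, and every tumor sample except library 9 lay above every chemotherapy sample. It was called lower in chemotherapy than healthy muscle (log2 fold change of -0.93 ± 0.31 SE at adjusted p = 0.0499), with -0.52 without healthy libraries 1, 3 and 4, and had -0.87 ± 0.31 against tumor (unadjusted p = 0.0105, adjusted p = 0.778).

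The balance of isoforms was followed as the difference in log2 CPM between the 2 genes of a pair within each library. Library scaling enters this measure only through the small prior count (2, scaled to library size), which weighs on low counts such as those of Cox4i2. Cox6a2 and Cox8b are the muscle forms of their pairs. Cox4i1 and Cox4i2 are instead the main form and the form known from lung and low oxygen. Cox6a2 over Cox6a1, the muscle and the ubiquitous form of a regulatory subunit, differed by 0.03, 0.04 and 0.01 between groups (exact permutation p = 0.825, 0.721 and 0.877 for tumor against healthy, chemotherapy against healthy and chemotherapy against tumor). Both genes had negative fold changes in chemotherapy against healthy muscle (-0.35 and -0.39) and neither was called. Cox8b over Cox8a stood at 3.56, 4.45, 3.65, 3.02 and 4.05 in healthy, 4.31, 4.18, 3.39, 4.14 and 3.83 in tumor and 3.997, 4.25, 3.99, 4.70, 4.16 and 4.10 with chemotherapy. The low values were in healthy libraries 1, 3 and 4 and tumor library 8, and the groups overlapped (difference of 0.45 for chemotherapy against healthy, exact permutation p = 0.0996, adjusted p = 0.224 over 9 tests).

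Cox4i1 over Cox4i2 stood at 7.08, 7.71, 7.23, 7.04 and 7.0 in healthy, 7.03, 6.55, 6.74, 7.17 and 6.75 in tumor and 7.38, 7.72, 7.66, 9.25, 7.64 and 7.14 with chemotherapy. The highest value came from chemotherapy library 15, with its 2 counts of Cox4i2. The chemotherapy and tumor means differed by 0.95 (two-sided exact permutation p = 0.00866, adjusted p = 0.0779), so 0 of the 9 differences passed the threshold after adjustment. This test cannot give a p below 0.00216 with groups of 6 and 5, or below 0.00794 with groups of 5. Cox7a1, the muscle isoform of another small subunit, had 274 counts in all libraries together and was not paired, since Cox7a2 was not analysed here.

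**Figure D4:**
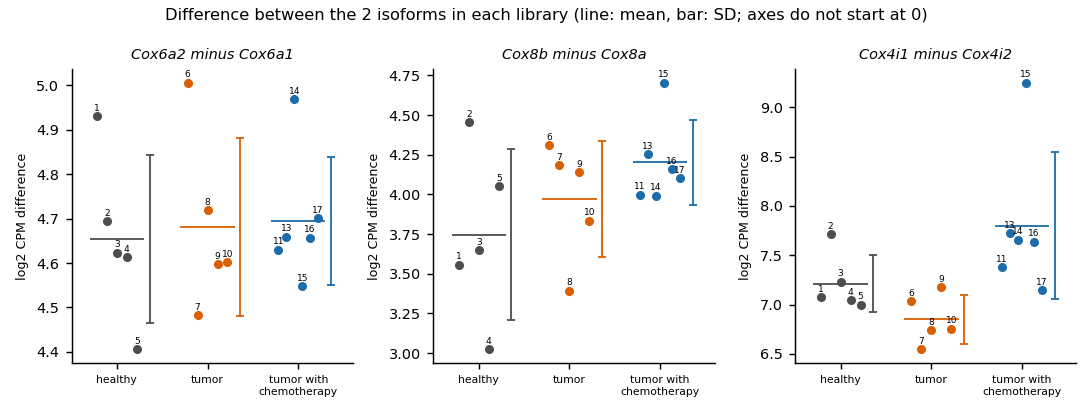
Difference in log2 CPM between the isoforms of 3 pairs in each library, with the group mean (line) and SD (bar). Cox6a2 minus Cox6a1 is centered near 4.65 to 4.69 in all groups, and Cox4i1 minus Cox4i2 reaches 9.25 in chemotherapy library 15.

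The 9 assembly factors of complex IV held 0 calls in edgeR, with 1 higher and 1 lower in chemotherapy against healthy muscle at an unadjusted p below 0.05, and the DESeq2 Wald test and limma-voom each called 1 of them, Cox16, higher there. Cox16, which helps to assemble the copper-binding subunit, averaged 11.9 ± 3.75 CPM in healthy, 16.03 ± 4.24 in tumor and 18.01 ± 2.81 with chemotherapy (log2 fold change of 0.60 ± 0.22 SE at adjusted p = 0.0636). Cox10, which makes heme O for heme A, averaged 76.5 ± 12.3, 65.3 ± 6.85 and 62.7 ± 5.45 CPM (log2 fold change of -0.29 ± 0.13 SE at adjusted p = 0.101). Cox15, which acts in the next step of heme A synthesis, had 0.25 ± 0.21 against healthy on the log2 scale. Cox11, a copper chaperone, was at 11.7, 18.7, 11.8, 10.4 and 12.9 CPM in healthy, 10.9, 12.01, 6.27, 13.7 and 11.6 in tumor and 12.4 to 19.6 (median 14.1) with chemotherapy. Its difference from tumor (0.47 ± 0.20, unadjusted p = 0.0296) was not called (adjusted p = 0.778). The copper carriers Cox17 and Cox19 had 0.04 ± 0.15 and 0.19 ± 0.12, and Cox7a2l, which links complexes III and IV into supercomplexes, 0.11 ± 0.13 against healthy and 0.19 ± 0.13 against tumor. The other assembly factors, Cox14, Cox18 and Cox20, ranged from -0.20 for Cox18 to 0.22 for Cox20 in chemotherapy against healthy muscle.

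In complex V all 3 genes of the membrane rotor had negative fold changes in tumor and in chemotherapy against healthy muscle, and 1, Atp5mc1, was called lower with chemotherapy. Atp5mc1, Atp5mc2 and Atp5mc3 encode the same mature c subunit, which forms the ring that turns as protons pass. Atp5mc1 stood at 768, 388, 717, 947 and 569.7 CPM in healthy, 429, 321, 477, 379 and 574 in tumor and 377 to 449 (median 429) with chemotherapy. Healthy library 2 was the only healthy library inside the chemotherapy range, healthy libraries 1, 3 and 4 were the highest, and the tumor samples spread around the chemotherapy ones. Atp5mc1 was called lower in chemotherapy than healthy muscle (log2 fold change of -0.70 ± 0.18 SE at adjusted p = 0.0302), with -0.20 without healthy libraries 1, 3 and 4. In tumor against healthy muscle the value was -0.64 ± 0.19 (adjusted p = 0.211).

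Atp5mc2 averaged 329 ± 70.6 CPM in healthy, 248 ± 50.4 in tumor and 239 ± 20.6 with chemotherapy, and Atp5mc3 469.6 ± 63.02, 368 ± 63.2 and 377.5 ± 23.9. Neither was called in edgeR (adjusted p = 0.0502 and 0.0893 against healthy for chemotherapy, 0.242 and 0.242 for tumor), while the DESeq2 Wald test and limma-voom called Atp5mc2 lower with chemotherapy. The summed level of the 3 c-ring genes was 1476 ± 339.5 CPM in healthy, 1052 ± 199 in tumor and 1035 ± 41.7 with chemotherapy. The spread was widest in the healthy group, where library 2 had 1043 and library 4 had 1943 CPM.

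The remaining genes of complex V were not called in any comparison in edgeR, while limma-voom and the DESeq2 Wald test called Atp5if1, Atp5md, Atp5me, Atp5mf and Atp5pf higher in chemotherapy than healthy muscle. The DESeq2 Wald test also called Atp5f1a and Atp5po lower there. Atp5if1, the inhibitor that blocks ATP hydrolysis when respiration fails, stood at 10.01, 18.7, 22.4, 18.2 and 23.4 CPM in healthy, 40.7, 30.5, 19.9, 29.5 and 24.6 in tumor and 25.8 to 28.2 (median 27.3) with chemotherapy. Every chemotherapy sample was above every healthy one, and in tumor only library 8 lay within the healthy range (log2 fold changes 0.63 ± 0.20 for tumor and 0.54 ± 0.19 for chemotherapy against healthy, adjusted p = 0.216 and 0.0598). Atp5me, a membrane subunit at the dimer interface, stood at 175.5, 199, 179.5, 137 and 180.5 CPM in healthy, 257, 192, 137, 225 and 216 in tumor and 211 to 259.5 (median 227) with chemotherapy, also without overlap between healthy and chemotherapy (log2 fold change of 0.41 ± 0.15 SE at adjusted p = 0.0580). Atp5md, another subunit of that region, had the highest fold change of complex V but a wide error (log2 fold change of 0.91 ± 0.35 SE at adjusted p = 0.0775). Atp5mf, a further membrane subunit, averaged 135 ± 41.1 CPM in healthy, 175 ± 58.3 in tumor and 208 ± 24.2 with chemotherapy (adjusted p = 0.0573).

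The catalytic head of ATP synthase gave opposite signs for its 2 main subunits, which are named outside the rule after their values were seen. Atp5f1a, the alpha subunit, averaged 3086 ± 430.0 CPM in healthy, 2667 ± 286.5 in tumor and 2538 ± 106 with chemotherapy. Atp5f1b, the beta subunit, which holds the catalytic sites, averaged 3142 ± 399, 3434 ± 576 and 3837 ± 216 CPM. Neither was called by edgeR in chemotherapy against healthy muscle (log2 fold change -0.28 ± 0.12 and 0.29 ± 0.13 SE, adjusted p = 0.108 and 0.129). Atp5f1e, the epsilon subunit of the central stalk, averaged 345 ± 58.2 CPM in tumor and 428 ± 29.6 with chemotherapy, with 389.7 ± 45.2 in healthy ones. Its difference between chemotherapy and tumor had an unadjusted p of 0.0264 and an adjusted p of 0.778. The other complex V entries, Atp5f1c, Atp5f1d, Atp5mg, Atp5pd, Atp5pf and Atp5po, had log2 fold changes from -0.47 for Atp5f1d to 0.55 for Atp5pf in chemotherapy against healthy muscle.

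Summed over each complex, complex II stood higher in every chemotherapy sample (1525 to 1937 CPM) than in every healthy one (1264 to 1479), with tumor samples at 1299 to 1838, while the groups overlapped in complexes III, IV and V. The 59 members together held 20647 ± 1104 CPM in healthy, 19645 ± 2443 in tumor and 20916 ± 1002 with chemotherapy. Complex III held 3181 ± 222 CPM in healthy, 2975 ± 366 in tumor and 3153 ± 173 with chemotherapy, complex IV 4875 ± 483 CPM in healthy, 4495 ± 654 in tumor and 4751 ± 201 with chemotherapy and complex V 10808 ± 620.2 CPM in healthy, 10042 ± 1114 in tumor and 10532 ± 438 with chemotherapy. In each of these 3 complexes tumor libraries 7 and 8 had the lowest tumor sums. These sums follow their most abundant genes and were not tested.

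**Figure D5:**
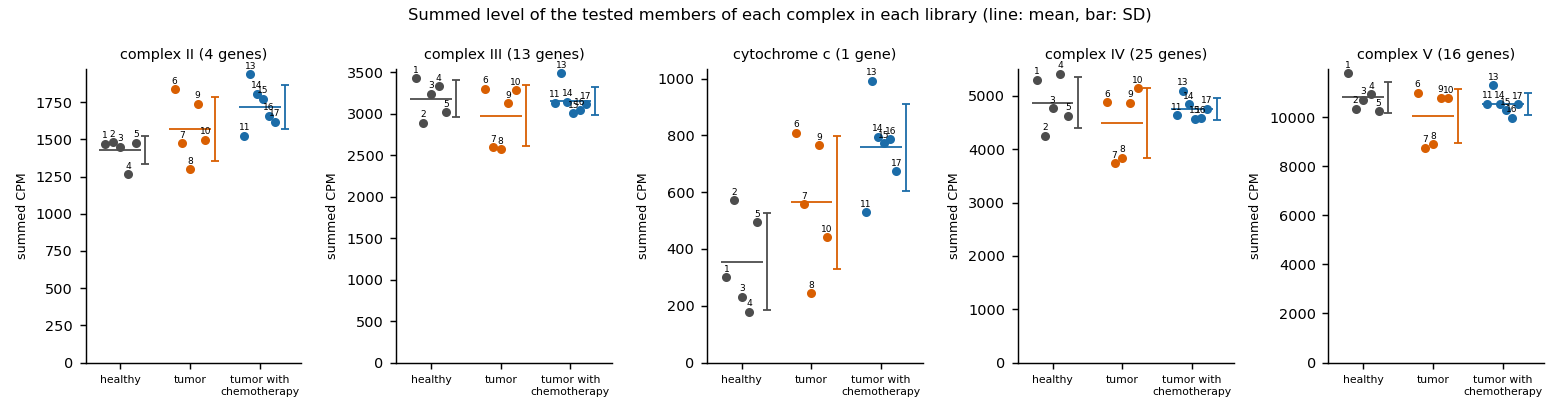
Summed CPM of the tested members of each complex in each library, with the group mean (line) and SD (bar), on axes that start at 0. Complexes III, IV and V overlap across the groups, while the single gene of cytochrome c averages 355, 564 and 758 CPM in healthy, tumor and chemotherapy samples.

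The difference between chemotherapy and healthy muscle was also taken within each alignment suffix, where the MB libraries offer 4 healthy and 1 chemotherapy sample and the VM libraries 1 healthy and 5 chemotherapy samples, too few for a test. The log2 ratio of means was 1.003 within MB and 1.13 within VM for Cox7b, 0.78 and 0.79 for Cox6c, and 0.84 and 0.69 for Cox7c. It was 0.72 and 0.70 for Cycs and 0.51 and 0.63 for Sdhd. Uqcrb entry 1 gave 0.50 and 0.39, whereas Uqcrc2 gave 0.10 and 0.58. Among the genes called lower it was -0.65 and -0.47 for Atp5mc1, -0.35 and -0.26 for Uqcrc1 and -0.48 and -1.07 for Cox4i2. All 10 called members had the same sign within both suffixes. They were called on these same samples, so this agreement is not independent of the call. Both ratios of Cox7b, Cox6c, Cox7c and Cycs were smaller than their log2 fold changes over all samples.

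Genes that serve the complexes without being members were taken from 5 lists of 74 entries, of which 66 were tested, 14 (21.2%) were called higher and 2 (3.03%) lower in chemotherapy against healthy muscle, beside 7.30% and 6.41% of all genes. These lists were chosen with earlier results of these data known. Among 25 tested assembly factors 6 (24.0%) were called higher and 0 lower, with 1 lower at an unadjusted p below 0.05. Lyrm7, the chaperone of the Rieske protein, averaged 2.29 ± 1.36 CPM in healthy, 4.72 ± 1.32 in tumor and 6.55 ± 1.42 with chemotherapy (log2 fold change of 1.55 ± 0.38 SE at adjusted p = 0.0280). Sdhaf2, which inserts the flavin into Sdha, had 0.70 ± 0.22, Coa5, a complex IV assembly factor, 0.9955 ± 0.33, and Atpaf1, which assembles the ATP synthase head, 0.70 ± 0.22. Slirp, which stabilizes mitochondrial mRNA, had 0.91 ± 0.27 and Tmem242, which takes part in building the c ring, 0.71 ± 0.22. Their adjusted p-values lay between 0.0280 for Lyrm7 and 0.0499 for Coa5. With 1 surrogate variable none of them was called. The values were then 0.86 for Lyrm7, 0.15 for Slirp, 0.14 for Tmem242, 0.023 for Sdhaf2, 0.016 for Coa5 and -0.0033 for Atpaf1.

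Of 9 tested genes for further subunits and electron entry, Ndufa4, now counted as a complex IV subunit, was called higher (246 ± 73.2, 320.5 ± 95.7 and 389 ± 69.4 CPM in healthy, tumor and chemotherapy samples, log2 fold change of 0.66 ± 0.21 SE at adjusted p = 0.0456). Among 22 tested genes of heme and coenzyme Q synthesis, Cpox (0.64 ± 0.17) and Coq7 (0.71 ± 0.20) rose, and Alas1 (-0.52 ± 0.15) and Alad (-0.66 ± 0.18), which catalyze the first steps of heme synthesis, fell. Among 10 tested genes often read for mitochondrial content, 5 were called higher: Hspd1 (1.07 ± 0.28), a matrix chaperonin, Vdac3 (0.85 ± 0.25), an outer-membrane porin, Tomm20 (0.68 ± 0.20) of the import complex, Tfam (0.58 ± 0.19), which packages mitochondrial DNA, and Slc25a4 (0.53 ± 0.17), the muscle ADP/ATP carrier. Citrate synthase (Cs) and Vdac1, by contrast, were at -0.03 and -0.01. With 1 surrogate variable none of these genes was called. The values were then 0.016 for Ndufa4, 0.27 for Cpox, 0.32 for Coq7, -0.32 for Alas1 and -0.23 for Alad. Among the content genes they were 0.24 for Hspd1, 0.14 for Vdac3, 0.13 for Tomm20, 0.066 for Tfam and 0.11 for Slc25a4.

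Marker genes of other cell types were read in the same comparison. The summed level of 4 blood genes was 422.5 to 1345 CPM in healthy, 221 to 572.5 in tumor and 119 to 893 with chemotherapy, with 0 of 4 called in edgeR and 3 lower at an unadjusted p below 0.05. That of 5 fibroblast genes was 4525 to 14210 CPM in healthy, 2778 to 12976 in tumor and 2222 to 10788 with chemotherapy, with 2 of 5 called lower (Col3a1 and Pdgfra), and of 4 endothelial genes 189.7 to 223 CPM in healthy, 148 to 236 in tumor and 121 to 187.5 with chemotherapy, with 1 of 4 called lower (Tie1). The 5 macrophage genes held 98.6 to 242 CPM in healthy, 87.3 to 166 in tumor and 98.5 to 187 with chemotherapy, with 0 called and 2 lower at that unadjusted p. The summed level of the 9 slow-fiber genes was 5668 to 12986 CPM in healthy, 8118 to 16069 in tumor and 6475 to 10857 with chemotherapy, with 0 called and 4 higher at the unadjusted p. In tumor against healthy muscle all 9 slow-fiber genes had positive fold changes and 7 were higher at the unadjusted p, and in chemotherapy against tumor all 9 were negative and 4 lower, with 0 called in both. The 7 fast-fiber genes held 134018 to 197717 CPM in healthy, 146791 to 175839 in tumor and 142072 to 168667 with chemotherapy, with 0 called. At the unadjusted p, 3 of them were lower in tumor against healthy muscle, and 3 were lower and 1 higher in chemotherapy against healthy muscle. Of the 9 muscle fiber markers, Acta1 and Ckm were called lower, and at the unadjusted p 2 were higher and 3 lower. Of the adipocyte markers, Ucp1 was at 0 in every library, and 2 of the 5 were tested, with 0 called and 2 higher at the unadjusted p. The part of these cell types in the members' values was not tested, and in whole muscle fewer cells of a type and less RNA per cell cannot be told apart.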

How the data were processed

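Per the labels, stranded libraries were prepared from gastrocnemius total RNA after removal of ribosomal RNA. The authors deposited raw counts of reads per gene, without normalization. The aligners named in the submitters' processing notes are TopHat2 2.0.10 and Bowtie2, after trimming with Trim Galore 0.4.1. No source used here gives the build, annotation, counting program or strand setting, so overlapping genes may share reads. Of 32883 entries, 388 without a name (at most 0.373% of counts) were left out.

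Groups came from the sample titles. Libraries 11 and 12 were summed, and 16 samples entered 1 edgeR 4.0.16 quasi-likelihood model (R 4.3.3, TMM, filterByExpr minimum count 10, robust fit, 13 residual degrees of freedom). Benjamini-Hochberg adjustment ran over 11856 genes. SE is the size of the log2 fold change over the square root of F. Isoform differences used log2 CPM with prior count 2 and two-sided exact permutation tests. Alternatives used limma 3.58.1, DESeq2 1.42.0 and sva 3.50.0, and the scripts were tested on simulated data. Total counts per library limit precision most for low genes.

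Members and gene lists were chosen with earlier results of these data known. Named genes were all called members, complex II, cytochrome c, the isoform pairs, the 3 smallest p-values of complex III, of complex IV subunits, of complex IV assembly factors and of complex V in each comparison, and called genes of the related lists. Other members named are said to be outside this rule or stand in a range; Cs, Vdac1, Uqcc3 and the Cox6b1 entries were also named after their values were seen.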

Additional observations from a re-analysis of the deposited data

Results flagged for a closer look

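In a group of 5 or 6 samples, 1 library stood apart from the others in 5 cases, by a gap that exceeds Dixon's 95% limit relative to the range of the group. Chance gives such a gap in about 1 of 20 groups, which is 6.30 of the 126 groups of values tested, so 5 cases are fewer than that. Sdhc in chemotherapy library 13 was at 368.3 CPM, above 324.6 to 338.4 in the other chemotherapy samples. Uqcrb entry 1 in the same library was at 84.37 CPM, above 58.88 to 68.36, and this member is one of those called higher. Cox16 in chemotherapy library 11 was at 12.75 CPM, below 17.90 to 20.56. Cox10 in tumor library 10 was at 77.14 CPM, above 59.47 to 63.97 in the other tumor samples. Uqcrfs1 in healthy library 1 was at 574.8 CPM, above 448.5 to 469.0 in the other healthy samples.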

How the results depend on the processing

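Against the 10 members called in chemotherapy against healthy muscle, 17 were called with total counts alone, 25 with the DESeq2 Wald test, 21 with limma-voom and 2 with no filter on low counts, where more genes were tested. Calls over all genes moved too, from 865 higher and 760 lower in the main fit to 1669 and 348 with total counts alone. They were 1407 and 1101 with the DESeq2 Wald test, 1574 and 885 with limma-voom and 474 and 410 of 19201 with no filter. With libraries 11 and 12 kept apart, 6 members were called higher and 1 lower, beside 627 and 620 of 11911 genes. Uqcrc1, Uqcrc2 and Cox4i2 were not called there. The number of members called was 0 without healthy libraries 1, 3 and 4, with the suffix as a term and with 1 surrogate variable. It ran from 0 to 31 when 1 library was left out, while all genes ran from 0 to 2024 higher and 0 to 1775 lower. In tumor against healthy muscle, where 0 members were called, the DESeq2 Wald test called 1 (Atp5mc1). Leaving out 1 library gave 0 to 3 members, the 3 (Atp5mc1, Cox8a and Uqcc2) without healthy library 2. Over all genes, the Wald test called 13 higher and 50 lower there, and 245 and 259 were called without healthy library 2. In chemotherapy against tumor the number of members called was 0 under every alternative run. The members' median log2 fold change moved in tumor against healthy muscle to 0.045 with total counts and to -0.021 without healthy libraries 1, 3 and 4, with a range of -0.13 to -0.020 when 1 library was left out, and in chemotherapy against healthy muscle to 0.18 with total counts. The cause of these changes was not tested.

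Some fold changes, all but that of Atpaf1 uncalled, turned sign. In tumor against healthy muscle, without healthy libraries 1, 3 and 4, values were 0.10 for Cox6a2, 0.16 for Cox8a, 0.022 for Uqcrc1, -0.00387 for Atp5mf and -0.14 for Atp5md. With 1 surrogate variable they were -0.014 for Uqcrc2, -0.00265 for Atp5mf, -0.24 for Atp5md and -0.010 for Uqcrh. With VM libraries alone Cox16 was at -0.038 and Cox17 at 0.036, and with the suffix as a term Cox16 was at -0.019 and Atp5md at -0.022. In chemotherapy against healthy muscle, without healthy libraries 1, 3 and 4, values were 0.0042 for Sdhc, 0.060 for Cox6a2, 0.061 for Cox8a, -0.056 for Cox11 and -0.0027 for Atp5f1e, and with VM libraries alone -0.032 for Atp5f1e. With 1 surrogate variable they were 0.034 for Cox6a1, 0.078 for Cox6a2, 0.057 for Cox8a, 0.0050 for Uqcc2, -0.015 for Uqcrb entry 2, -0.037 for Cox16, -0.22 for Cox11, -0.043 for Atp5f1e, -0.16 for Atp5md and -0.0033 for Atpaf1, a called gene that is no member. The cause was not tested. A further 64 sign changes had no call before or after and began from a value within 1 SE of 0. No isoform difference passed the threshold under any alternative run. Between groups of 5 or fewer, the exact permutation p cannot fall below 0.00794. A single difference with that p does not pass after adjustment over 9 tests. Settings that left such groups could therefore hardly have shown a change. No paired analysis was possible because the groups share no library numbers. With the shallowest library at 3020821 counts, differences in genes of a few CPM, such as Cox4i2 and Cox7a1, are poorly resolved.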
